A study of Mus musculus with 2 samples.

Results

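The 34 genes described here are known for their expression in the epithelium of the lung, and they were read on 2 arrays of mouse liver RNA. The genes were taken from a list: 13 of surfactant metabolism and alveolar type 2 cells, 9 of alveolar type 1 cells, 6 of club and other airway secretory cells, 2 of ciliated cells, and 4 transcription factor genes of lung epithelium. All 34 were on both arrays, among 16390 named genes, each with 1 probe. The list was chosen partly for very low ratios on the array of whole liver, so those ratios are given as a description and support nothing by themselves. Each array carried RNA of MMP-14 knockout (KO) mice in Cy3 and RNA of wild-type (WT) mice in Cy5. MMP-14 is a metalloproteinase held in the cell membrane, known for cutting collagens and other matrix proteins. The first array held whole liver, as a mixture of RNA from 2 KO livers against a mixture from 2 WT livers. Its labels give postnatal day 1 (P1) and the design text E18.5, a conflict that was not settled, so it is called the P1 array after its label. The second array held cells sorted from fetal liver as Dlk+CD45-CD71-Ter119-, labelled E14 and given as E14.5 in the design text, with RNA of 100000 cells from 3 KO livers against 3 WT livers. The KO allele and the strain are not given in the sources used here. There was 1 array per comparison and no dye swap, so the values carry no error between mice, no test was possible, and an effect of the dye on a probe cannot be told apart from genotype.

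Gas exchange in the lung takes place across flat type 1 cells, while cuboidal type 2 cells make surfactant, the film of lipids and proteins that keeps the air spaces open. The conducting airways are lined by club cells, which secrete small proteins called secretoglobins, and by ciliated cells, which move mucus. The transcription factor NKX2-1 directs this lineage and acts on the promoters of surfactant and secretoglobin genes. Some genes of the list, such as Ctsh and Cav1, are also expressed in many other tissues.

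Promoter sequences are shown for the leading gene with a window in each of 3 cell groups and for Sftpb, whose promoter is a textbook target of NKX2-1. Each window holds 300 bases of RefSeq sequence, build GRCm38.p6, written 5′ to 3′ on the strand of the gene, 250 bases before the transcript start and 50 after it. Capitals mark matches on either strand to GCNCTNNAG, a core described for NKX2-1 at the Sftpb promoter, or to the forkhead core TGTTTAC. The windows and motifs were chosen after the values had been seen.
Sftpb, chr6:72304360-72304659, plus strand: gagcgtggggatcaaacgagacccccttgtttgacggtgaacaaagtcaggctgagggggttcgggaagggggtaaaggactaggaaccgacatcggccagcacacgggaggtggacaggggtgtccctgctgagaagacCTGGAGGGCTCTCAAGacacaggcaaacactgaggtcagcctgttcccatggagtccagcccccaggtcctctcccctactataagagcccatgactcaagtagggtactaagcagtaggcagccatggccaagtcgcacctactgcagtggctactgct
Sftpa1, chr14:41131538-41131837, plus strand: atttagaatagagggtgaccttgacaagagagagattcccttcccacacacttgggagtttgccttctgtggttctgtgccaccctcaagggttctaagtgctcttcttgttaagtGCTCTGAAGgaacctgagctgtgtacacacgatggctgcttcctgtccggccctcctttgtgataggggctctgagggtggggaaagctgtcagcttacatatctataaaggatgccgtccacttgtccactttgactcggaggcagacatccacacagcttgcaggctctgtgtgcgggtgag
Cbr2, chr11:120731972-120732271, minus strand: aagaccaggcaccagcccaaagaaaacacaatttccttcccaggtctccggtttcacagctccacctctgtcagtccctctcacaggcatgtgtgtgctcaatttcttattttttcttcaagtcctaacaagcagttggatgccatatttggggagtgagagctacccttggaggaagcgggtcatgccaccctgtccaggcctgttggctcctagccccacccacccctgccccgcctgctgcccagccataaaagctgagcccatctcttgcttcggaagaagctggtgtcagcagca
Ager, chr17:34597600-34597899, plus strand: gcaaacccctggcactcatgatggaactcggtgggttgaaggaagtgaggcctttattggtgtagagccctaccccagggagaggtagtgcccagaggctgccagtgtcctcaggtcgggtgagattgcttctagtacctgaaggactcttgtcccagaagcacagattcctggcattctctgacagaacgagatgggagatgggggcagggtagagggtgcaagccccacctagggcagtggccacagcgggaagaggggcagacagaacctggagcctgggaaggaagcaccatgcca

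The Sftpb window held 2 matches to GCNCTNNAG, which overlap each other, the Sftpa1 window held 1, and the windows of Cbr2 and Ager held none of either motif. Of the 34 genes, 22 had 28 windows in all, and 7 of the 28 windows held GCNCTNNAG, those of Hopx, Irx2, Nkx2-1, Scgb3a1, Sec14l3, Sftpa1 and Sftpb. Among all 32851 promoter windows, 17.5% held this motif. The forkhead core was in 3 of the 28 windows, of Etv5, Lamp3 and Pdpn, against 3.65% of all windows. A match describes letters in a window and is not a measured binding site.

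In whole liver labelled P1, all 34 lung epithelial genes were detectable in the WT channel and 25 were detectable in the KO channel. A channel was called detectable above the mean plus 2 SD of blank spots, after 5 percent of the blanks was removed at each end, which gave thresholds of 87.0 for KO and 50.5 for WT. Over all named genes, 80.9% were detectable in the KO channel and 81.2% in the WT channel. Of the 34 genes, 9 were detectable in WT only, and 0 in KO only. Among all named genes, 3.63% were detectable in WT only and 3.28% in KO only. The KO signals of 17 of the 34 genes lay below 1.1 times the threshold, a group that includes the 9 below it, while 14 WT signals lay at 10 times the threshold or more.

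**Figure D1:**
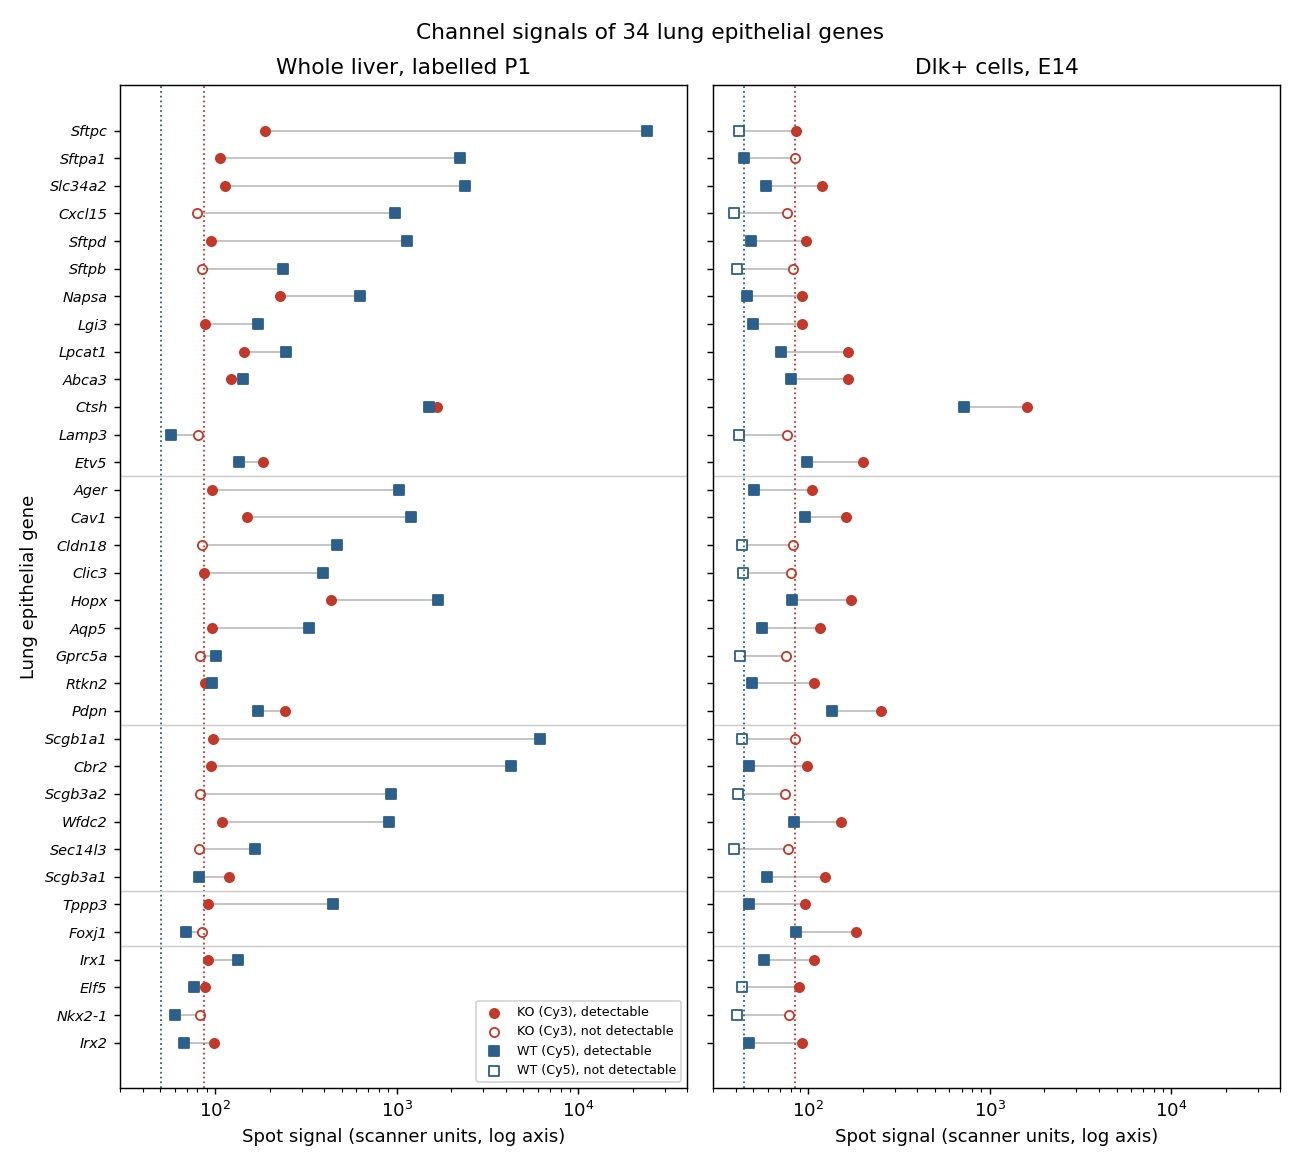
Spot signal in scanner units (log axis) of the 34 lung epithelial genes in the KO channel (red circles) and WT channel (blue squares) of the P1 array (left) and the E14 array (right), with 1 array per comparison. Open symbols were not detectable, dotted lines are the thresholds, and grey lines divide, from the top, type 2, type 1, secretory, ciliated and transcription factor genes. On the P1 array the WT signals of the upper genes of each epithelial group stand far to the right of the KO signals, and on the E14 array both channels of most genes lie near the thresholds.

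Ratios are log2 of KO over WT after background correction by normexp with an offset of 50 and loess normalisation, and a gene was counted as changed at a fixed size of 2-fold. On the P1 array 23 of the 34 genes were at least 2-fold lower in KO and 0 were at least 2-fold higher. Over the 13847 named genes detectable in at least 1 channel, 1.44% were lower by that size and 0.513% higher. These shares stand for 199 lower and 71 higher genes, and median centring in place of loess gave 131 lower and 274 higher. At 4-fold, 18 of the 34 genes were lower, against 0.26% of all genes. In RNA of whole tissue, fewer cells of a type and less RNA per cell cannot be told apart. Because the genes were chosen in view of these ratios, the count is a description. Of the 23 genes, 17 were detectable in both channels. Whether the WT pool held RNA of lung tissue was not tested, and neither the labels nor these 2 mixtures tell such RNA apart from expression in liver. The median of the 34 ratios was -2.16, and the median of all genes was -0.0024. The authors' deposited values, log2 ratios without the shrinkage that the offset brings to dim genes, were present for 25 of the 34 and had a median of -4.53. Of these 25, 20 were lower by 2-fold or more in the authors' deposited table and 0 higher, against 5.04% and 3.17% of all genes with a value there.

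Sftpc and Sftpa1, both genes of surfactant proteins, had the lowest ratios among the type 2 genes. Sftpc, which encodes surfactant protein C, a small hydrophobic protein made by type 2 cells, had a signal of 187 in KO and 24038 in WT on the P1 array, and of 85.2 in KO and 41.8 in WT on the E14 array. Its P1 ratio was -7.85, and -8.27 in the authors' deposited table. The KO signal of Sftpc was 2.15 times the detection threshold, so Sftpc was detectable in both P1 channels, while on the E14 array it was detectable in KO alone and just above the threshold.

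Sftpa1 and Sftpd encode collectins, surfactant proteins that bind microbes. Sftpa1 had a signal of 106 in KO and 2245 in WT on the P1 array, against 84.9 in KO and 44.4 in WT on the E14 array, and a P1 ratio of -5.26. Sftpd had a signal of 95.0 in KO and 1145 in WT on the P1 array, against 97.1 in KO and 48.5 in WT on the E14 array, and a P1 ratio of -4.43. In both cases only the WT channel of the P1 array stood far above its threshold. Sftpb, which encodes the surfactant protein needed for film formation, had a signal of 84.8 in KO, below the threshold, and 236 in WT, and was at least 4.61-fold lower in KO. Its WT spot had a local background of 207, and with that background used in normexp the ratio was -0.62, short of 2-fold. Such a bound sets the WT value against the lowest detectable KO value, or the gene's own where higher, taken per channel once loess and Aquantile scaling had been applied, and it is open to dye bias.

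Type 2 cells also carry transporters, proteases and secreted factors. Slc34a2, the phosphate transporter of type 2 cells, had a signal of 113 in KO and 2381 in WT on the P1 array, against 120 in KO and 58.7 in WT on the E14 array, and a P1 ratio of -5.24. Cxcl15, a chemokine of lung epithelium, had a signal of 79.3 in KO and 980 in WT and was at least 19.9-fold lower in KO. Napsa, an aspartic protease that processes surfactant protein B, had a signal of 228 in KO and 630 in WT, with a ratio of -2.07. Slc34a2 and Napsa were thus detectable in both P1 channels, and Cxcl15 in WT only. Lgi3 (-1.69) and Lpcat1 (-1.37), an enzyme of surfactant lipid synthesis, were also more than 2-fold lower in KO. In all, 9 of the 13 type 2 genes were at least 2-fold lower in KO, 7 of them at least 4-fold.

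The remaining 4 type 2 genes had smaller ratios. Abca3, the lipid transporter of lamellar bodies, stood at -0.83, with a signal of 122 in KO and 142 in WT. Ctsh, a lysosomal protease found in many tissues, stood at -0.50, with a signal of 1673 in KO and 1510 in WT, and was as readily detected on the E14 array, with 1610 in KO and 722 in WT. Lamp3, a protein of lamellar body membranes, had a signal of 80.4 in KO, below the threshold, and 57.0 in WT, and was at least 1.17-fold lower in KO. The transcription factor gene Etv5 stood at -0.09.

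Of the 9 type 1 genes, 7 were at least 2-fold lower in KO on the P1 array, 6 of them at least 4-fold. Ager, which encodes a receptor abundant in the basal membrane of type 1 cells, had a signal of 96.6 in KO and 1034 in WT, against 106 in KO and 50.2 in WT on the E14 array, and a P1 ratio of -4.24. Cav1, which encodes a protein of membrane caveolae in type 1 cells and also in endothelium, had a signal of 150 in KO and 1196 in WT, against 162 in KO and 96.0 in WT on the E14 array, and a P1 ratio of -3.71. Hopx, a homeodomain protein of type 1 cells, had a signal of 437 in KO and 1682 in WT, against 172 in KO and 81.3 in WT on the E14 array, and a P1 ratio of -2.59. The KO signal of Hopx was 5.02 times the threshold, so this gene was read clearly in both channels.

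The tight junction gene Cldn18, with a signal of 84.9 in KO and 472 in WT, was detectable in WT only and was at least 9.37-fold lower in KO. Clic3, of the chloride intracellular channel family, stood at -2.95 and Aqp5, a water channel of type 1 cells, at -2.49. The KO signal of Clic3, 87.2, was only just above the threshold, so its ratio in the authors' deposited table, -6.64, rests on a KO value near the blank mean. Gprc5a, an orphan receptor gene, was not detectable in KO, with a signal of 83.1 in KO and 101 in WT. Its fitted ratio of -1.05 counts as past 2-fold, while its bound, 1.9985-fold, does not reach it. Rtkn2, detectable in both channels, lay just short of 2-fold at -0.86. Pdpn, which encodes podoplanin, a surface protein of type 1 cells and also of lymphatic vessels and mesothelium, stood at -0.01, with a signal of 244 in KO and 172 in WT.

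Of the 6 secretory genes, 5 were at least 2-fold lower in KO, 4 of them at least 4-fold. Scgb1a1, the main secretoglobin of club cells, had a signal of 97.5 in KO and 6166 in WT on the P1 array, against 84.5 in KO and 43.2 in WT on the E14 array, and a P1 ratio of -6.95. Cbr2, a carbonyl reductase of club cells, had a signal of 94.9 in KO and 4251 in WT on the P1 array, against 99.1 in KO and 47.2 in WT on the E14 array, and a P1 ratio of -6.44. For both, the KO signal on the P1 array lay close to the threshold. Scgb3a2, another secretoglobin gene, had a signal of 83.0 in KO and 930 in WT and was at least 18.9-fold lower in KO. Its WT spot had a local background of 814, and with that background used in normexp the ratio was -1.73, against -4.37 without it. For Cbr2 the ratio with the local background was -4.48. Wfdc2, a secreted protein of airway epithelium, stood at -3.83, with a signal of 109 in KO and 910 in WT, and Sec14l3, which encodes a lipid-binding protein, was at least 3.22-fold lower. The secretoglobin gene Scgb3a1 differed from its relatives, with a signal of 119 in KO and 81.9 in WT and a ratio of -0.08.

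The 2 genes of ciliated cells differed from each other. Tppp3, which encodes a tubulin-binding protein, had a signal of 91.2 in KO and 448 in WT on the P1 array, against 95.9 in KO and 47.0 in WT on the E14 array, and a P1 ratio of -3.07. Foxj1, the transcription factor that starts the program of motile cilia, had a signal of 85.0 in KO and 69.0 in WT, was detectable in WT only, and was at least 1.39-fold lower in KO. On the E14 array Foxj1 was brighter in both channels, with 184 in KO and 85.7 in WT, and was the only one of the 34 genes whose WT signal was lower on the P1 array than on the E14 array.

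The 4 transcription factor genes were dim, and 1 of them was at least 2-fold lower in KO. Irx1, of the Iroquois homeobox family, stood at -1.27, with a signal of 91.6 in KO and 134 in WT on the P1 array, against 108 in KO and 57.0 in WT on the E14 array. Nkx2-1, named above as the regulator of the lineage, had a signal of 83.1 in KO and 59.8 in WT, was detectable in WT only, and was at least 1.22-fold lower in KO. It was not detectable in either channel of the E14 array. Elf5, of the ETS family, stood at -0.54 and Irx2, another Iroquois gene, at -0.15. The P1 KO signals of the 4 genes lay between 0.955 and 1.13 times the threshold.

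**Figure D2:**
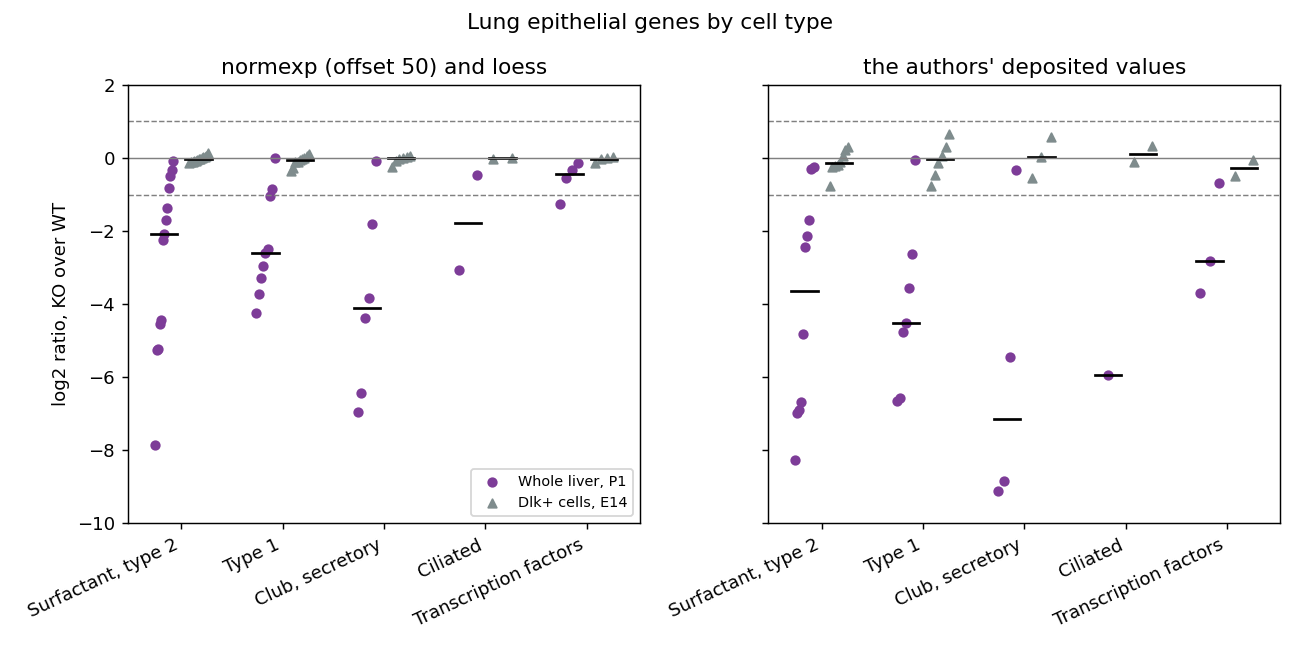
log2 ratio of KO over WT for the lung epithelial genes, grouped by cell type, on the P1 array (purple circles) and the E14 array (grey triangles), with normexp and loess on the left, fitted values of genes below the threshold included, and the authors' deposited values, where present, on the right. Black bars are medians over genes and dashed lines mark 2-fold. The P1 points reach -7.85 on the left, and all E14 points on the left lie between -0.37 and 0.12.

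In the sorted E14 cells 0 of the 34 genes reached 2-fold in either direction. Over all detectable named genes of this array, 0.0859% were lower by 2-fold or more in KO, 0.00716% lower by 4-fold or more, and 0.0143% higher by 2-fold or more. Of the 21 members with an E14 value in the authors' deposited table, 0 reached 2-fold, against 0.268% of all genes lower and 1.26% higher. The median over the 24 genes detectable in at least 1 channel was -0.02, against 0.01 for all genes, and the ratios ran from -0.37 for Cav1 to 0.12 for Lpcat1. Of the 34 genes, 23 were detectable in the KO channel and 22 in the WT channel, against 84.9% and 77.9% of all named genes, and 2 were detectable in KO only and 1 in WT only, against 7.35% and 0.403%. Most of these signals were low, and 16 of the 34 KO signals and 18 of the 34 WT signals lay below 1.1 times their thresholds of 85.1 and 44.3. The 2 arrays differ in cells, stage and pool size, so their difference cannot be ascribed to any one of these.

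The P1 ratios were also set beside detection on the E14 array. Of the 10 genes not detectable in either E14 channel, 8 were at least 2-fold lower in KO on the P1 array, with a median of -2.60. Of the 3 detectable in 1 E14 channel, 2 were, with a median of -5.26. Of the 12 detectable in both but under 1.5 times the threshold in at least 1, 9 were, with a median of -2.28. Of the 9 genes that reached 1.5 times the threshold in both E14 channels, 4 were (Lpcat1, Cav1, Hopx and Wfdc2), with a median of -0.83 and a range from -3.83 to -0.01. This grouping was made after the values had been seen and was not tested. The same counts were not made over all named genes in each detection state. The list was also chosen partly for very low P1 ratios. The counts therefore describe the listed genes only, and a link between E14 detection and the P1 ratio cannot be judged from them.

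Raw signals of the same genotype were set side by side between the arrays. The raw KO signal on the P1 array was a median of 0.985 times that on the E14 array over the 34 genes, and 3 genes exceeded 1.5 times: Hopx (2.54), Napsa (2.47) and Sftpc (2.20). The raw WT signal was a median of 5.87 times that on the E14 array, and 27 genes exceeded 1.5 times and 14 reached 10 times. Over all 14616 named genes detectable in any channel, the medians were 0.907 for KO and 1.16 for WT, and 6.94% of genes in KO and 20% in WT exceeded 1.5 times. Of these 14616 genes, 85 reached 10 times in KO and 144 in WT, while 0 of the 34 did in KO. These signals were not normalised between arrays, and the arrays hold different kinds of sample, so the ratios are descriptions of each channel. On the P1 array 17 of the 34 KO signals lay below 1.1 times the threshold, and 16 did on the E14 array. For genes this dim on both arrays, a KO ratio near 1 shows signals near the background and not an equal level of RNA. Other genes with KO ratios near 1 were brighter, such as Ctsh (1.04), at 19.2 and 18.9 times the threshold, and Pdpn (0.963), at 2.81 and 2.98 times.

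**Figure D3:**
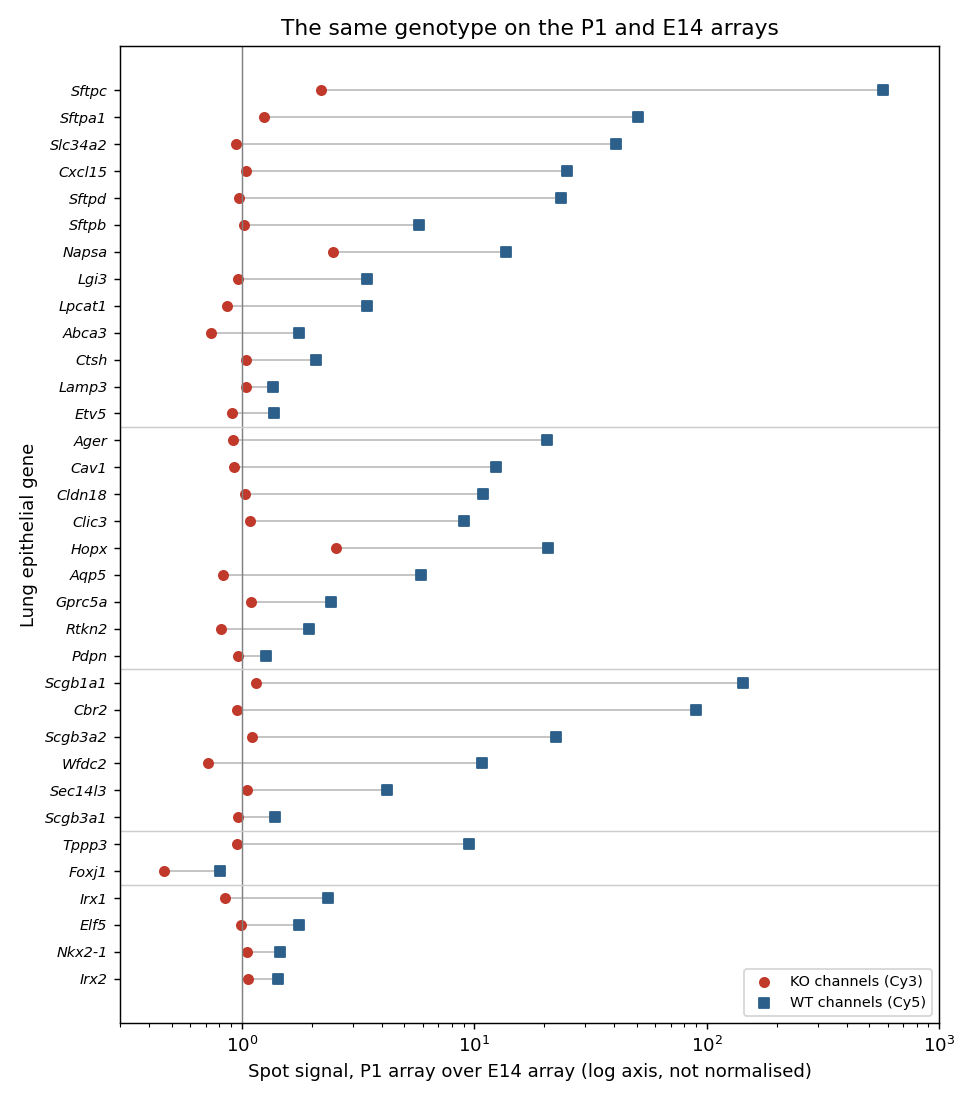
Spot signal on the P1 array divided by that on the E14 array (log axis, not normalised) for the KO channels (red circles) and the WT channels (blue squares) of the 34 lung epithelial genes. The KO points lie between 0.462 and 2.54 and the WT points between 0.806 and 575, and every WT point is to the right of its KO point.

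The positions of the lung epithelial genes on the array and in the genome are given as a description. Their probes lay in 16 of the 24 blocks of spots, with at most 4 in 1 block, and the 23 genes at least 2-fold lower lay in 14 blocks. Block 20 held Scgb1a1, Cbr2, Cxcl15 and Sftpd, whose P1 ratios ranked 2, 3, 6 and 7 from the lowest. Sftpc, Sftpa1 and Slc34a2, which ranked 1, 4 and 5, lay in blocks 16, 22 and 18. An effect of position on the array was not tested. The genes lie on 17 chromosomes, with 4 genes each on chromosomes 11 and 14 as the most. Chromosome 14, which also holds the targeted gene Mmp14, carries Sftpa1, Sftpd, Sftpc and Lgi3, all at least 2-fold lower in KO on the P1 array. Whether their chromosome bears on these ratios was not tested. Among the 13310 named genes detectable in the WT channel of the P1 array, 9 of the 10 lowest ratios and 14 of the 20 lowest belonged to the 34 genes, which repeats how the list was chosen.

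Other genes of lung epithelium were lower in KO on the P1 array as well. Of 52 further such genes on the array, 46 were detectable in at least 1 channel, and 12 of these were lower by 2-fold or more and 0 higher, against 1.44% and 0.513% of all genes. Their median was -0.40, and 3 of the 46 lay above 0. By cell type the counts at least 2-fold lower were 5 of 12 for type 2, 4 of 10 for type 1, 2 of 10 for airway secretory and 1 of 14 for ciliated cells. Examples among these 12 were S100g (-2.94), a calcium-binding protein gene, Muc1 (-2.37), an apical mucin gene, and S100a6 (-3.65), of the same family as S100g. Others were Emp2 (-1.69), an epithelial membrane protein gene, Aldh1a1 (-1.55), a retinaldehyde dehydrogenase gene, Cyp2f2 (-1.50), a cytochrome P450 gene of club cells, and Dynlrb2 (-1.14), a dynein light chain gene. Several genes of these lists were read clearly in KO liver RNA too, so the lists are not particular to lung. On the P1 array Hc (-0.42) had 2025 in KO and Igfbp2 (-0.64) had 27332, and Cyp2f2 had 232. On the E14 array S100g had 551 in KO and 202 in WT, and S100a6 had 247 and 145. On the E14 array 45 of the 52 were detectable and 0 reached 2-fold in either direction. The further lists were written with earlier results of these arrays known.

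Some markers of other lung cells were also lower in KO on the P1 array. Of 13 detectable genes of lung mesenchyme, 4 were at least 2-fold lower in KO on the P1 array, with a median of -0.62 and 0 above 0, and the summed signal of the 15 on the array was 1706 in KO and 3245 in WT. Mfap4, a protein of elastic fibres, stood at -4.12, the methyltransferase gene Inmt at -2.45, and the transcription factor genes Tcf21 and Foxf1 at -2.27 and -1.06. Of 10 genes of lung endothelium, 4 were at least 2-fold lower, with a median of -0.48: the tight junction gene Cldn5 at -2.17, the adhesion gene Icam2 at -1.38, Foxf1, which is in both lists, and Car4. The summed signal of the endothelial list was 3390 in KO and 3229 in WT. Of 8 genes of alveolar macrophages, 1, the carbonic anhydrase gene Car4 (-1.01), which is also in the endothelial list, was at least 2-fold lower. The median of the 8 was 0.04, and 4 of them lay above 0. Those above 0 included Chil3 (0.33), with a signal of 7589 in KO and 3715 in WT, and Marco (0.16), with 4426 and 2466. Below 0 were also Mrc1 (-0.49) and Atp6v0d2 (-0.29). The summed signal of the macrophage list was 13529 in KO and 7417 in WT, to which Chil3 and Marco gave the most. The summed signals are raw and include the blank level, with a mean of 82.5 in KO and 48.0 in WT per spot. Over all named genes they were 8874000 in KO and 5986010 in WT, so sums cannot be compared directly between channels. Mesenchymal and endothelial genes are expressed in liver too, and the part of lung RNA in any of these values was not tested.

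Genes of other organs had ratios closer to 0 on the P1 array. Of 80 such genes on the array, for heart, skeletal muscle, thymus, thyroid, squamous epithelium, stomach and intestine, pancreas and kidney, 59 were detectable in at least 1 channel and 0 reached 2-fold in either direction, against 1.44% and 0.513% of all genes. Of the 54 with a value in the authors' deposited table, 1 was lower by 2-fold or more and 6 higher, among them Sycn (2.53), with a signal of 123 in KO and 53.2 in WT. The median of the 59 was -0.03, and the summed signal of the 80 was 11238 in KO and 8597 in WT. These raw sums include the blank level, with a mean of 82.5 in KO and 48.0 in WT per spot. A higher sum in KO is therefore no sign of more RNA there. The lowest were Myl3 (-0.83), a myosin light chain gene of heart, and Fabp2 (-0.82), a fatty acid binding protein gene of intestine, and the highest was Sycn (0.58), a pancreatic gene. Thyroid, which also uses NKX2-1, had 2 detectable genes, Pax8 (0.01) and Tg (-0.0047). Both lay near the thresholds, Pax8 with 88.6 in KO and 51.5 in WT and Tg with 89.3 and 52.6. The offset shrinks the ratios of such dim genes. Nppb stood at 0.12, against 1.54 in the authors' deposited table, and Trp63 at 0.24, against 2.21.

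**Figure D4:**
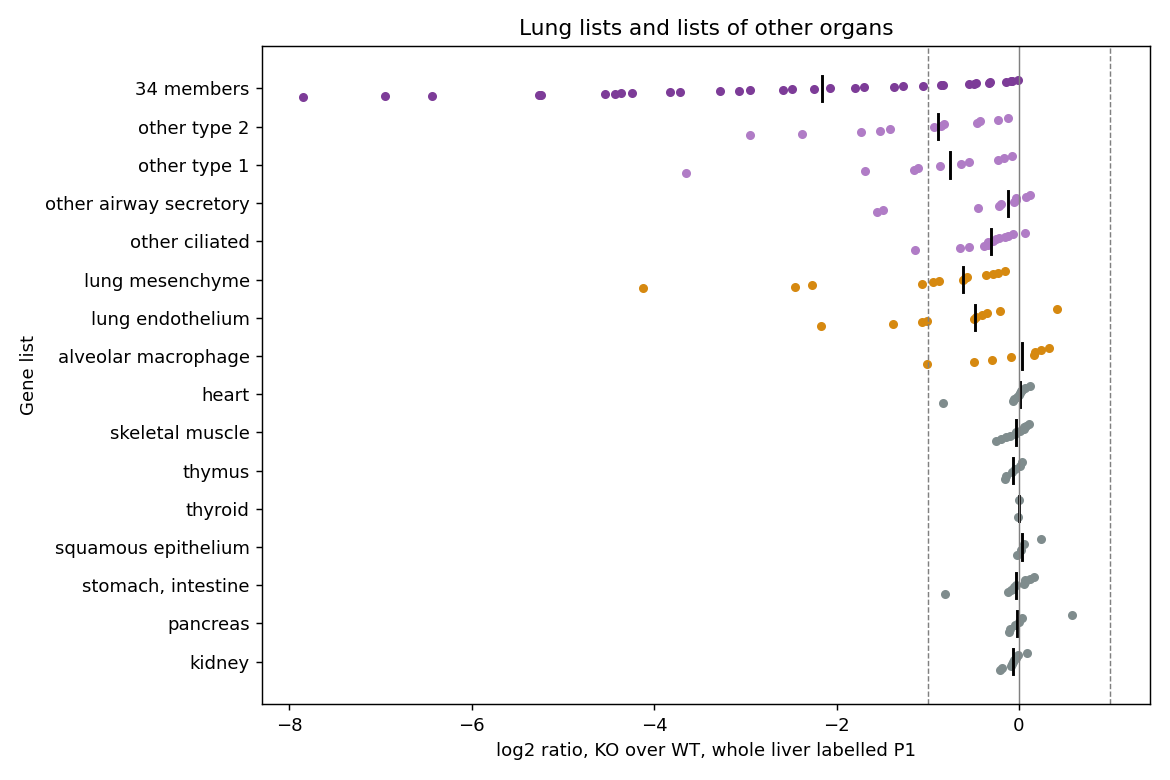
log2 ratio of KO over WT on the P1 array for the 34 lung epithelial genes, other lung epithelial lists (light purple), other lung cell types (orange) and other organs (grey), with genes detectable in at least 1 channel as points and list medians as black bars. Dashed lines mark 2-fold. The lung epithelial lists reach to -7.85 and -3.65, and no gene of the other organs lies past -0.83.

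The liver itself was read in every channel. Of 14 hepatocyte markers on the array, 14 were detectable in KO and in WT on both arrays. On the P1 array 7 were at least 2-fold lower in KO and 2 higher, against 1.44% and 0.513% of all genes. The 7 lower, among them Ttr (-1.65), Ahsg (-1.56) and Fgb (-1.38), had WT signals of 37978 or more. Such readings lie in the upper part of the scanner's range, and Ahsg, with 65535 in WT, had the highest, so the size of these ratios is uncertain. The 2 higher were Tat (1.73), with 15131 in KO and 2775 in WT, and Cps1 (1.06), with 1421 and 452. On the E14 array 4 were at least 2-fold lower and 0 higher, against 0.0859% and 0.0143%. These 4 were Alb, Ttr, Trf and Afp, with WT signals of 35570 or more, so the size of their ratios is uncertain too. All 4 had whole-number readings. Over all genes, the 12 lower on the E14 array became 2 once genes with such readings were left out. The targeted gene Mmp14 had a signal of 104 in KO and 161 in WT on the P1 array, with a ratio of -1.30, and of 132 in KO and 131 in WT on the E14 array, with a ratio of -1.13.

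Among genes outside the list, the 12 lowest P1 ratios of genes detectable in WT belonged to Mfap4, S100a6, Mgp (-3.60), S100g, Apoa4 (-2.94), Krt27 (-2.62), Col6a1 (-2.61), Fhl1 (-2.57), Inmt, Muc1, Tspan8 (-2.27) and Tcf21. Of these, Mfap4, S100a6, S100g, Inmt, Muc1 and Tcf21 are in the lung lists given above. Mgp, which encodes an inhibitor of calcification, had a signal of 106 in KO and 760 in WT on the P1 array, against 121 in KO and 59.1 in WT on the E14 array. Apoa4, an apolipoprotein gene of intestine and liver, had a signal of 4340 in KO and 19962 in WT on the P1 array and was detectable in KO only on the E14 array, with 89.9 in KO and 43.7 in WT.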

How the data were processed

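Total RNA was amplified by an amino allyl method before dye coupling, per the labels' protocols. Per the file headers, the scanner files give each spot's intensity and its local background in both channels, with no normalisation. The authors also deposited log2 ratios of KO over WT. A comparison with the scanner readings showed that these log2 ratios followed the ratio after subtraction of the trimmed blank mean and median centring (correlation 0.999995 on the E14 and 1 on the P1 array, column medians 7.21e-07 and -2.74e-05), so scale, centring and direction are known. Each array had 27456 spots with 2736 blanks. The 4 flagged probe spots of the E14 array were left out.

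The tool was limma 3.58.1 (R 4.3.3), applied without the local background, which followed the spot (Spearman 0.948 in KO and 0.900 in WT on the P1 array). Probes of a gene were averaged. The steps were run on a simulated array in which only probes bright in WT were changed. That run does not cover genes dim in both channels, and no result here rests on it. Of 23473 probes, 16631 had 1 symbol in the platform annotation, none several, and 6842 were unnamed here. A RefSeq table of GRCm38.p6 updated 3947 symbols, 5 of them members. The number of arrays limits the precision.

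Members and lists were chosen with earlier results of these data known. The rule for naming genes took all members, up to 4 genes of each further list with the largest absolute P1 ratios, and the 12 lowest genes outside the members. Not every gene that it took from the further lists is named above, and some genes outside it are named. The genes given as examples of the further lung epithelial lists were all at least 2-fold lower in KO, so they do not stand for their lists. Background, offset, normalisation, detection filter, fold and probe choice were varied as alternatives.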

Additional observations from a re-analysis of the deposited data

How the results depend on the processing

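The count of lung epithelial genes at least 2-fold lower in KO on the P1 array was 23, and lay between 17, over genes detectable in both channels, and 28, with an offset of 10 or the local background subtracted, over 14 alternatives, while the count at least 2-fold higher was 0 in each. No member ratio past 2-fold changed sign in any alternative that gave a value. Sftpb and Gprc5a fell short of 2-fold with the local background used in normexp, Gprc5a and Irx1 with an offset of 100, and Gprc5a without normalisation. The median P1 ratio, -2.16 in the values above, was -1.48 with the local background in normexp, -3.44 with it subtracted, -4.77 with the blank mean subtracted, -3.14 and -1.69 with offsets of 10 and 100, -1.85 without normalisation, -4.53 in the authors' values (25 genes) and -2.49 over genes detectable in both channels. A value was called moved when it shifted by more than the SD between probes of a gene, 0.22 on the P1 and 0.12 on the E14 array. On the E14 array the count at least 2-fold lower was 0 in all 14, the count at least 2-fold higher was 1 with the blank mean subtracted (Elf5) and 1 without normalisation (Ctsh), and the median was 0.46 without normalisation, where all genes had a median of 0.74. Median centring moved the E14 median of all genes to 0.21, and no normalisation moved the P1 median to 0.19. Over all genes, the share at least 2-fold lower on the P1 array ran from 0.664% without normalisation to 7.09% with the blank mean subtracted (968 genes, against 199). On the E14 array, 12 lower and 2 higher genes became 1 and 155 under median centring, and 0 and 4603 without normalisation, and the 12 lower became 2 without genes of whole-number readings. No paired analysis was possible because each comparison has 1 array. Dim KO signals limit the size of the ratios: 9 of the 34 are below the threshold, and their fitted ratios are no bounds.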

Other observations

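The 6842 unnamed probes were in no comparison above. Of the 5132 detectable in at least 1 channel of the P1 array, 39 were lower in KO by 2-fold or more and 26 higher, and 2 were lower by 8-fold or more, the lowest at a log2 ratio of -4.14. On the E14 array, of 5215 detectable, 4 were lower by 2-fold or more and 1 higher.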
